A study of Mus musculus with 6 samples.

Results

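Cytosolic ribosomal protein genes encode the proteins of the small (Rps) and large (Rpl) subunits of the ribosome that translates nuclear messages. They were taken as the rows of the deposited table whose symbol begins with Rps or Rpl, followed by a number and at most an a, x or l with a further number. Of 23827 listed rows, 81 matched, and 75 of them (74 symbols) had a mean of at least 1 RPKM (reads per kilobase of transcript, scaled to the total of the library) over the 6 libraries. The 39 with a wild-type mean of 20 RPKM or more are given apart from the 36 under it.

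The libraries came from brain endothelial cells of C57BL/6 x 129/Sv mouse embryos at E14.5 (embryonic day), whose mothers had received tamoxifen at E12.5. RNA bound to ribosomes was isolated by translating ribosome affinity purification (TRAP), and polyadenylated RNA was sequenced. There were 3 biological replicates with overexpression of Axin1 from the R26 locus (R26 Axin1 IresLacZ) and 3 wild-type ("Wt") replicates, both from tamoxifen-treated mothers. Axin1 assembles the proteins that send beta-catenin, the effector of Wnt signalling, to degradation. The labels used here do not name the promoter that drives recombination or the ribosome tag.

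Each ribosome holds 1 copy of nearly every core ribosomal protein, and cells make these proteins in matched amounts. Their mRNAs are abundant and usually start with a C followed by a run of pyrimidines, the terminal oligopyrimidine (TOP) motif, through which mTOR and LARP1 control their translation. The genes have left many processed pseudogenes in mammalian genomes, so that short reads from them often match several places. In TRAP the tag is usually carried by ribosomal protein L10a.

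Start regions of 8 members are shown because pyrimidine runs at the start are the sequence feature that this gene class is known for. Of the 74 member symbols, 55 had an entry in the RefSeq promoter table (GRCm38.p6), with 66 promoters of 300 bases. Each line runs from 40 bases before the annotated start to 15 bases from it, 5′ to 3′ on the strand of the gene, and capitals mark pyrimidine runs of 6 or more. The first 5 belong to members called higher below, the next 2 to members called higher without such a run, and the last to a member that was not called.
Rpl15 (chr14:18270972-18271026, minus strand): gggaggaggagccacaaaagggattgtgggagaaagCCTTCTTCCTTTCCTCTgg
Rpl27a (chr7:109519155-109519209, plus strand): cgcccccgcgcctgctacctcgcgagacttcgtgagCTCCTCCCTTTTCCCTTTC
Rpl22l1 (chr3:28805468-28805522, plus strand): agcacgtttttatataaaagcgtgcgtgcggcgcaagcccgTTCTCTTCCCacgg
Rpl39 (chrX:37085208-37085262, minus strand): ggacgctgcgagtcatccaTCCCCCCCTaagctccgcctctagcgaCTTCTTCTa
Rpl4 (chr9:64173347-64173401, plus strand): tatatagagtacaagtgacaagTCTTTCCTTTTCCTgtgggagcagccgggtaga
Rps16 (chr7:28350649-28350703, plus strand): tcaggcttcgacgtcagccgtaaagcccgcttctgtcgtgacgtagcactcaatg
Rpl41 (chr10:128549154-128549208, minus strand): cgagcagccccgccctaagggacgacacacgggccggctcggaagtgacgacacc
Rpl38 (chr11:114668540-114668594, plus strand): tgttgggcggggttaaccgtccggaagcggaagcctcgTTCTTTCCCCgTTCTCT

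A pyrimidine run of 8 or more within 20 bases of the annotated start was found in 45.5% of the members' promoters and in 16.0% of all 32851 promoters in the table. With the stricter form, a C at the start base followed by 4 or more pyrimidines, the shares were 18.2% and 2.51%. These are shares of promoters and not of genes. The stricter form depends on the exact start base, and the annotated start was the RefSeq gene start for only 60.4% of promoters checked. Of the 8 shown, Rpl15 and Rpl38 have the stricter form, and in Rpl4 the run lay upstream of the annotated start. Among promoters of members at 20 RPKM or more, runs of 8 or more stood in 6 of 11 promoters of called genes and in 9 of 26 of the others. For runs of 6 or more these counts were 6 of 11 and 15 of 26, and for the stricter form 1 of 11 and 4 of 26, so the order depended on the definition. Over the 300 bases and both strands, CCGGAAG was in 34.8% of the members' promoters and 8.86% of all, ATGGCG in 31.8% and 8.93%, GGGCGG in 60.6% and 35.7%, and TATAAA in 7.58% and 13.6%. These are matches of letters and not measured binding.

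The libraries held 36348751, 37041175 and 21077477 recovered reads with Axin1 and 62509260, 53525659 and 57804081 in WT. Axin1 itself had 37.8 ± 0.349 RPKM in Axin1 libraries and 14.4 ± 0.798 RPKM in WT libraries (SD, n = 3 each), a difference in the direction of the labels. Apcdd1, a Wnt target, averaged 211 ± 12.3 RPKM with Axin1 and 669 ± 37.6 RPKM in WT. The endothelial markers were abundant in every library, with summed levels of 3051 to 3244 RPKM with Axin1 and 3424 to 3594 RPKM in WT. Cldn5 had the largest fall of the list, with means of 748 RPKM with Axin1 and 1263 RPKM in WT. Of the 10 markers, 4 had log2 fold changes above 0 and 6 below, so the lower sum was not shared by all. Other cell types were also seen, and their values stand beside the results below. All Axin1 column names carry one tag and all WT names another. No source used here says what it means, and if it marks a batch, batch and genotype cannot be told apart.

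The members' levels spanned a wide range. In WT, Rpl8 was the highest, and its values were 1008, 1084 and 1134 RPKM with Axin1 and 1012, 973 and 937 RPKM in WT. At the other end, Rpl29 averaged 0.244 RPKM in WT, 3997-fold below Rpl8, although both proteins belong to the large subunit. In all, 20 members had a WT mean of 100 RPKM or more and 21 had one under 5 RPKM.

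**Figure D1:**
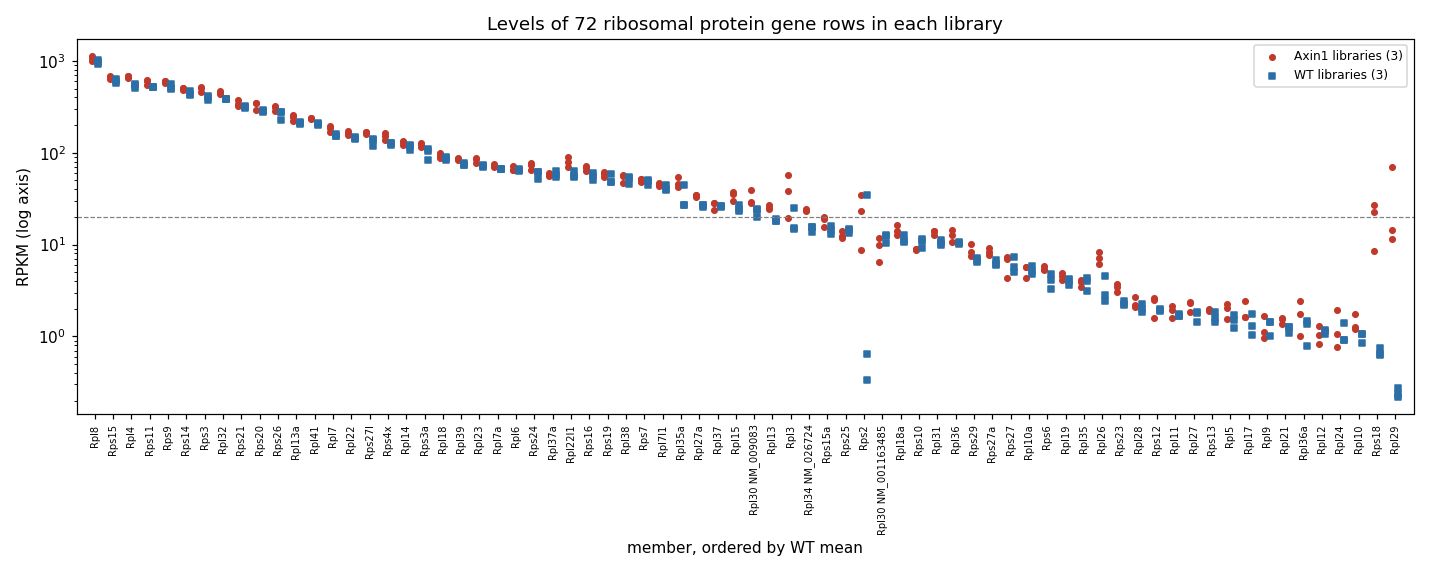
RPKM (log axis) of 72 members in each library, ordered by WT mean, with circles for the 3 Axin1 libraries, squares for the 3 WT libraries and a dashed line at 20 RPKM. The levels fall smoothly from Rpl8 to Rpl10, and Rps2, Rps18 and Rpl29 stand out by their spread.

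Members with more sequence copies in the annotated transcriptome tended to have lower levels. For each member, 50-base windows of its reference transcript were matched to all other annotated genes, by exact sequence unless stated. Members at 20 RPKM or more shared a window with a median of 0.743 other genes and had a median of 62.2% of windows unique. Members under 20 RPKM shared one with 2.24 other genes and had 23.9% unique. Spearman's rho between WT level and copies was −0.63 over the 75 members, −0.67 within the 39 and −0.20 within the 36, as a description without a test, since the points share the libraries and the counting. With the share of unique windows in place of copies, rho was 0.61, 0.39 and 0.25 in these 3 sets, and with up to 2 mismatches allowed it was 0.32, −0.03 and 0.18, so the relation was not seen within the 39 under that rule. No source used here says how the authors treated reads with several matches, and its part in these levels was not tested.

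**Figure D2:**
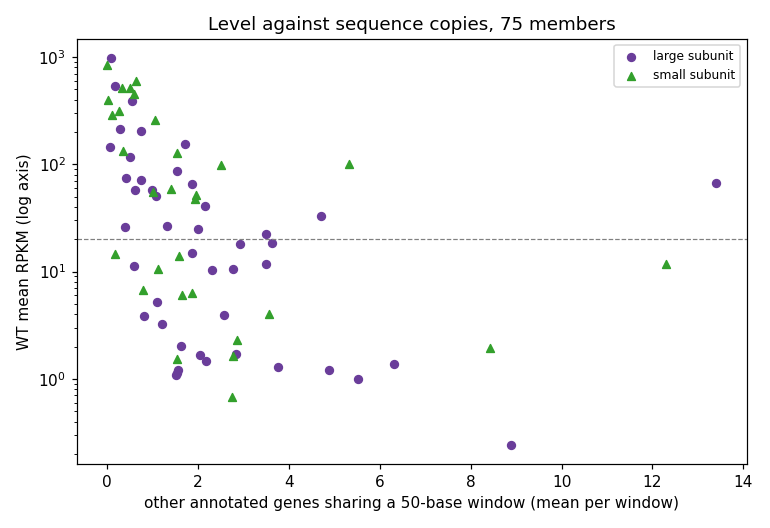
WT mean RPKM (log axis) against the mean number of other annotated genes that share a 50-base window of the member's transcript, for 75 members of both subunits. Of the 27 members with 2 or more copies, 20 lie under the dashed line at 20 RPKM.

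Among the 39 members at 20 RPKM or more, all 39 log2 fold changes were at or above 0, with a median of 0.20 and a range of 0.00 to 0.56. The change was called higher (limma on log2(RPKM + 1), Benjamini-Hochberg adjusted p under 0.05 over 12493 genes) for 14 of them (35.9%) and lower for 0, against 14.4% higher and 8.37% lower over all genes, whose median was 0.04. The 3 Axin1 libraries were above the 3 WT libraries, with no overlap, for 28 of 39 members (71.8%), against 28.0% of all genes. The summed level of the 39 was 9052, 9688 and 9927 RPKM with Axin1 and 8441, 8313 and 8136 RPKM in WT. This was 2.47%, 2.57% and 2.62% of all RPKM with Axin1 and 2.31%, 2.32% and 2.26% in WT.

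After correction of each library for transcript length and GC content, 2 of the 39 members, Rpl4 among them, were called higher, against 6.99% of all genes, and the median was 0.07 with 33 members above 0. With the length that the authors' values imply in place of the reference length, 2 were called higher, against 7.37% of all genes. In the authors' deposited table, adjusted p-values under 0.05 stood at 5 of the 39 members, all higher with Axin1, against 5.52% of all genes higher and 6.89% lower. The members' median counted length was 737 bases, against 2809 over all genes. With rescaling to a shared upper quartile 6 were called, against 8.94% of all genes, with a median of 0.14, and under this rescaling and the median of ratios 36 members were above 0. Without Axin1 replicate 2 there were 3 calls, against 4.71% of all genes, and without Axin1 replicate 3 there were 4, against 6.41%. Without WT replicate 1 there were 9, against 9.49%, and without WT replicate 3 there were 7, against 1376 of 12493 genes. Over all genes the calls were 1800 higher and 1046 lower, and with the median of ratios 1298 higher and 1338 lower.

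**Figure D3:**
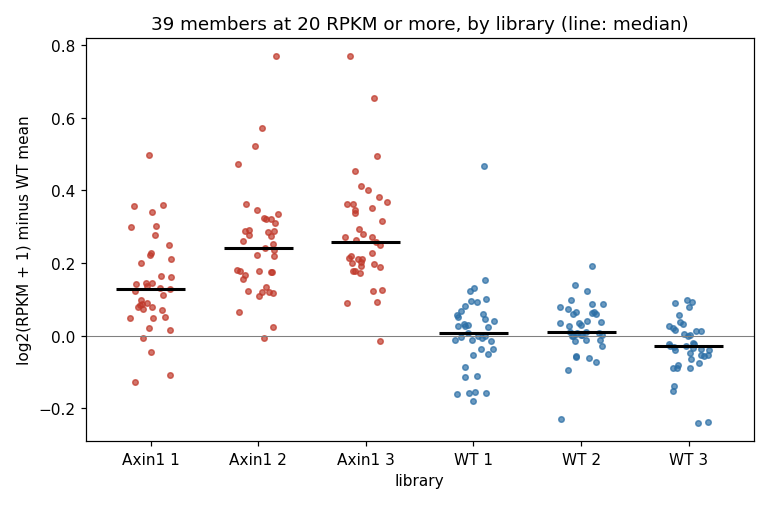
Difference of log2(RPKM + 1) from the WT mean in each library for the 39 members at 20 RPKM or more, with Axin1 libraries in red, WT libraries in blue and the median as a line. The medians were 0.13, 0.24 and 0.26 in Axin1 libraries 1 to 3 and 0.01, 0.01 and −0.03 in WT libraries 1 to 3.

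Markers of other cell types were also called in the same libraries, against 14.4% higher and 8.37% lower over all genes. The part of these cell types in the members' change was not tested. Erythroid markers summed to 413 to 774 RPKM with Axin1 and 119 to 166 RPKM in WT, with 5 of 5 tested called higher, while Hba-a1, Hba-a2 and Hbb-b1 were listed at 0 in all libraries. One of these 5, Hbb-b2 (means of 113 RPKM with Axin1 and 36.1 RPKM in WT), had a counted length of 4 bases. It rested on 5 to 20 reads a library. Neural progenitor markers summed to 2218 to 2312 RPKM with Axin1 and 1708 to 1878 RPKM in WT, with 7 of 10 called higher. Most of this sum was Vim (means of 1469 RPKM with Axin1 and 1167 RPKM in WT) and Nes (431 and 373 RPKM, not called). Sox2 averaged 58.2 and 33.6 RPKM and Pax6 17.0 and 10.2 RPKM, so the sum does not measure the amount of neural RNA. After the length and GC correction 5 of these 10 were called higher, against 6.99% of all genes. So were 4 of the 4 erythroid markers that could be corrected. Neuronal markers had 4 of 9 called higher (median 0.24), and all 4 calls were lost after the length and GC correction (median 0.14). Pericyte and smooth muscle markers had 4 of 8 called lower, and after the length and GC correction 2 of 8, against 7.3% of all genes. The Cspg4 call (adjusted p = 0.0489 with limma) held in 4 of 17 settings, and its groups overlapped. The endothelial list had 1 of 10 higher (Emcn) and 2 lower (Cldn5 and Esam, the Esam call being lost without any library but WT replicate 2), the meningeal fibroblast list 1 of 11 higher and 2 lower, and the microglia and macrophage list 1 of 7 higher. In bulk samples, fewer cells of a type and less RNA per cell cannot be told apart.

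The large subunit had 8 of its 20 core members at this level called higher, and the small subunit 4 of 16, against 14.4% of all genes. Both had a median of 0.20. All Axin1 libraries lay above all WT libraries for 13 of 20 and 13 of 16, against 28.0% of all genes. After the length and GC correction 1 of 20 and 1 of 16 were called higher, against 6.99% of all genes. Rpl4, whose protein reaches into the exit tunnel, had 659, 680 and 679 RPKM with Axin1 and 554, 508 and 542 RPKM in WT. Its groups did not overlap, and its log2 fold change of 0.33 (SE 0.06, adjusted p = 0.00831) was called in every setting run and was 0.19 after the length and GC correction. Rpl27a had 34.4, 33.2 and 34.5 RPKM with Axin1 and 25.9, 26.8 and 27.1 RPKM in WT (log2 fold change 0.34, SE 0.06, adjusted p = 0.00563). Both groups were tight and apart, and the call ended under the correction (0.19, adjusted p = 0.0676).

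Rpl15 had 29.8, 37.5 and 35.5 RPKM with Axin1 and 23.4, 27.2 and 24.2 RPKM in WT (log2 fold change 0.44, SE 0.10, adjusted p = 0.0152). All Axin1 values were higher, and the call ended without Axin1 replicate 2 or 3 and under the correction (0.25, adjusted p = 0.0915). Rpl35a, a Diamond-Blackfan anaemia gene in humans, had the highest log2 fold change of the 39, at 0.56 (SE 0.18), with 45.3, 54.9 and 42.6 RPKM with Axin1 and 44.3, 27.0 and 26.8 RPKM in WT. WT replicate 1 lay within the Axin1 range, and the adjusted p was 0.0581. Rpl32, Rpl41, Rpl7, Rpl39 and the NM_009083 row of Rpl30 were also called, with log2 fold changes of 0.20 to 0.48. Each of these 5 calls was lost under the correction, with the upper quartile, and without Axin1 replicate 3 or WT replicate 1.

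In the small subunit, Rps3, which lines the entry of the mRNA channel, had 464, 501 and 515 RPKM with Axin1 and 408, 418 and 377 RPKM in WT (log2 fold change 0.30, SE 0.07, adjusted p = 0.0192). The groups were apart, and the call ended without Axin1 replicate 2 or 3 or WT replicate 3 and under the correction (0.17, adjusted p = 0.0941). Rps4x, the X-linked gene of its subunit protein, and Rps16 were called as well, at 0.27 and 0.29, and both calls were lost under the correction and without Axin1 replicate 2 or 3 or WT replicate 2 or 3, among other settings. Rps3a, Rps24 and Rps26 had log2 fold changes of 0.32, 0.29 and 0.24 with adjusted p-values of 0.0559, 0.0541 and 0.0836.

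At the low end of the fold changes, Rpl37a had 55.9, 60.4 and 57.1 RPKM with Axin1 and 62.9, 53.9 and 56.5 RPKM in WT. The groups overlapped, and the log2 fold change was 0.00, with a 95% interval from −0.16 to 0.17. Rpl6 and Rpl37 were each at 0.04, and Rps7 at 0.07. Rpl38, which is needed in mouse embryos for translation of Hox mRNAs, had a log2 fold change of 0.06, with an interval from −0.16 to 0.28. Rpl18, Rpl7a, Rpl7l1, Rps21 and Rpl8 lay between 0.10 and 0.14.

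**Figure D4:**
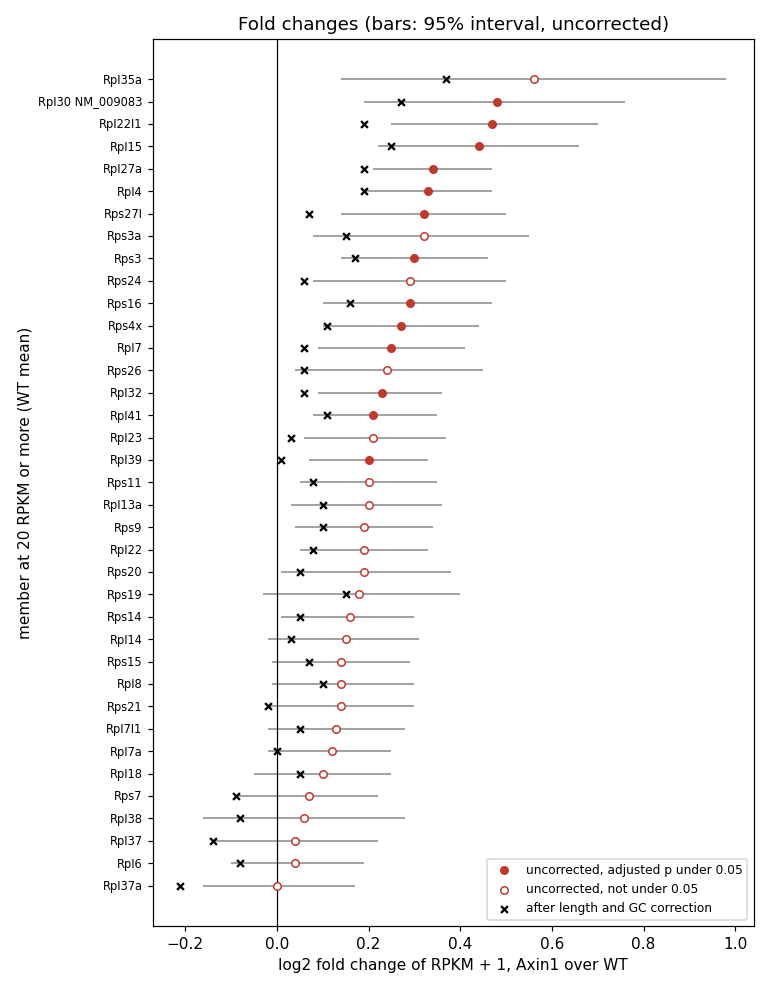
Log2 fold change of RPKM + 1, Axin1 over WT, for 37 of the members at 20 RPKM or more, with filled circles for members called, open circles for the others, bars for the 95% interval and crosses for the value after length and GC correction. All circles lie at or right of 0, and each cross lies left of its circle.

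Of 3 paralogs that passed the filter, 2 were called higher, against 14.4% of all genes. After the length and GC correction 0 of the 3 were called, against 6.99% of all genes higher. Rpl22l1, a paralog of Rpl22, had 70.7, 79.9 and 90.7 RPKM with Axin1 and 55.3, 63.2 and 53.8 RPKM in WT (log2 fold change 0.47, SE 0.10, adjusted p = 0.0141). Every Axin1 library was higher, and the call ended without Axin1 replicate 2 and under the correction (0.19, adjusted p = 0.157). Rpl22 had a log2 fold change of 0.19 (adjusted p = 0.0614), and the difference between the pair was not tested. Rps27l, a p53-induced paralog of Rps27, had 170, 159 and 168 RPKM with Axin1 and 119, 142 and 138 RPKM in WT (0.32, adjusted p = 0.0240, and 0.07 after the correction). The groups did not overlap, and the call was lost without any of the Axin1 libraries or WT replicate 1 and under the correction. Rpl7l1 had a log2 fold change of 0.13 (adjusted p = 0.167).

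Close to the 20 RPKM line, the NM_009083 row of Rpl30 stood just inside, with 28.7, 28.3 and 38.96 RPKM with Axin1 and 20.04, 23.5 and 24.1 RPKM in WT, and Rpl13 just outside with 18.1, 18.1 and 19.2 RPKM in WT. Rpl13 had 24.1, 27.2 and 24.7 RPKM with Axin1, above all WT values, and was called in every setting (log2 fold change 0.43, SE 0.07, adjusted p = 0.00456). The Rpl30 row just inside had a counted length of only 107 bases. The other tested row of Rpl30, with a counted length of 43 bases, went the other way. It had 6.39, 11.9 and 9.91 RPKM with Axin1 and 12.4, 10.5 and 12.6 RPKM in WT. Its groups overlapped, and its log2 fold change of −0.33 was not called.

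The 36 members under 20 RPKM had a median log2 fold change of 0.24 and a range of −0.33 to 4.26. For 9 of them the change was called higher and for 0 lower, again beside 14.4% and 8.37% of all genes. After the length and GC correction 6 were called higher and 1 lower, against 6.99% and 7.3% of all genes, and without Axin1 replicate 1 there were 15 higher, against 11.9%. Rps18 and Rpl29 passed the filter through their Axin1 libraries alone, so these counts are not support for a shared change. Rpl10, which was not called, had a WT mean of 0.999 RPKM, just under the filter value. Without the 10 rows that were short or varied more than 2-fold within a group, 5 of 26 (19.2%) were called higher, with a median of 0.21, against 14.4% of all genes. After the length and GC correction 2 of these 26 were higher and 1 lower, against 6.99% and 7.3% of all genes.

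Rps18 had 27.1, 22.7 and 8.50 RPKM with Axin1 and 0.646, 0.752 and 0.631 RPKM in WT, a log2 fold change of 3.46 (SE 0.34). Rpl29 had 14.502, 11.4 and 69.3 RPKM with Axin1 and 0.272, 0.238 and 0.221 RPKM in WT, or 4.26 (SE 0.54). For both genes every Axin1 library was far above every WT library. Since both passed the filter through the Axin1 libraries, these values are a description. Rps2 had 34.4, 23.1 and 8.68 RPKM with Axin1 and 0.645, 34.4 and 0.331 RPKM in WT. Here the jump was within WT, where replicate 2 equalled the highest Axin1 library, and the change was not called (adjusted p = 0.172). Rpl3 had 19.3, 37.9 and 57.4 RPKM with Axin1 and 25.1, 14.6 and 15.02 RPKM in WT (adjusted p = 0.0837).

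**Figure D5:**
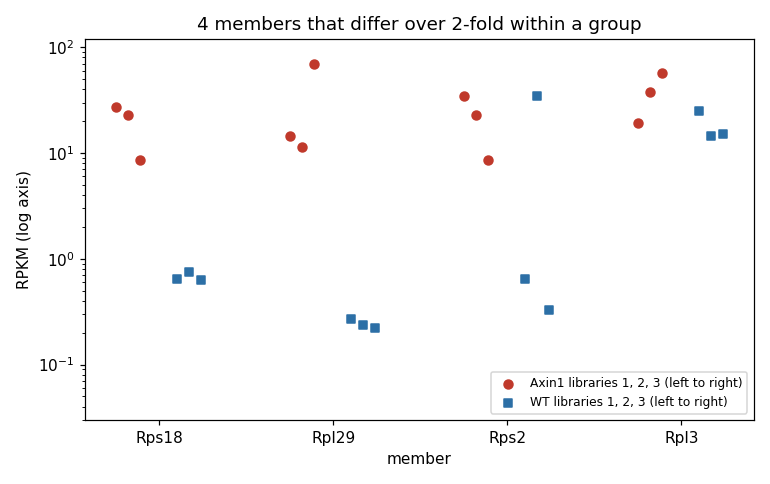
RPKM (log axis) in each library for 4 members that varied more than 2-fold within a group, with circles for Axin1 libraries and squares for WT libraries. Rps18 and Rpl29 lie apart between the groups, whereas WT replicate 2 of Rps2, at 34.4 RPKM, lies with the Axin1 libraries.

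In these rows, 17.7% of the reference windows of Rps18 were unique, 34.6% of those of Rpl29, 20.5% of those of Rps2 and 14.6% of those of Rpl3. With up to 2 mismatches, windows of Rpl29 were shared with 130 other annotated genes, 120 of them pseudogenes. Those of Rps2 were shared with 103, of which 99 were pseudogenes, so these values are uncertain as measures of the genes named. Such sharing was not particular to these rows. Rpl7a, with 18.5% of windows unique, shared windows with 166 other genes, 157 of them pseudogenes. Its highest library was only 1.1-fold its lowest with Axin1 and 1.01-fold in WT. The part of shared sequence in the swings was not tested.

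Of the other low members, the NM_026724 row of Rpl34 had 23.5, 23.1 and 24.2 RPKM with Axin1 and 15.4, 15.4 and 13.8 RPKM in WT (log2 fold change 0.63, SE 0.06, adjusted p = 0.000599). The groups were tight and apart, over a counted length of 193 bases. Rps23, which sits at the decoding centre, had 3.07, 3.41 and 3.76 RPKM with Axin1 and 2.21, 2.43 and 2.23 RPKM in WT (0.42, SE 0.07, adjusted p = 0.00672). It was called in every setting run. Rpl26, whose human protein binds p53 mRNA, had 7.16, 8.22 and 6.18 RPKM with Axin1 and 2.80, 2.45 and 4.54 RPKM in WT, but its counted length was 23 bases and it rested on 3 to 7 reads a library.

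Rpl31, the ubiquitin fusion gene Rps27a and Rps6, the substrate of S6 kinase, were called at 0.35, 0.37 and 0.38, and all 3 calls were lost under the correction and without Axin1 replicate 2. The Rps6 call was also lost without Axin1 replicate 1 or 3 or WT replicate 2 or 3. Rpl5 and Rpl11, which bind the 5S RNA and Mdm2, had log2 fold changes of 0.24 and 0.10 and were not called (adjusted p = 0.122 and 0.393). Rps10 was the single low member whose WT libraries all lay above its Axin1 libraries, an order seen in 15.9% of all genes. The opposite order held for 16 of the 36 low members (44.4%), Rps18 and Rpl29 among them, against 28.0% of all genes. Rps10 had 8.96, 8.67 and 9.01 RPKM with Axin1 and 10.97, 9.24 and 11.4 RPKM in WT (−0.22, adjusted p = 0.0798 and unadjusted p = 0.0241 with limma). The remaining low members were not called.

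Rpl10a averaged 5.24 ± 0.817 RPKM with Axin1 and 5.25 ± 0.490 RPKM in WT (SD, n = 3 each). Its log2 fold change was −0.01 with an interval from −0.25 to 0.23, and 22.3% of its windows were unique.

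Near the 1 RPKM filter, Rpl12 (mean 1.09 RPKM) stood just inside and Rpl39l (0.918 RPKM) just outside. Rps28, Rpl3l, Rpl23a, Rpl10l and the NM_001005859 row of Rpl34 were also under it and were not tested.

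Of 7 core ribosomal protein genes that the symbol rule does not take, Rpsa and Rpl36al were called higher, with log2 fold changes of 0.41 and 0.35, and Fau, a ubiquitin-like fusion with S30, lower at −0.66 (adjusted p = 0.0167). The Rpsa call was lost without Axin1 replicate 2, the Rpl36al call under the correction and the Fau call with no filter on low values. The stalk proteins Rplp0, Rplp1 and Rplp2 had 0.05, 0.02 and 0.17 and were not called. Among genes that build ribosomes, 19 of 40 were called higher and 0 lower, with a median of 0.26, against 14.4% of all genes higher. After the correction 12 of the 40 were called, against 6.99% of all genes higher. The list includes the nucleolar proteins Npm1 (192 ± 8.57 RPKM with Axin1 and 132 ± 8.31 RPKM in WT) and Ncl (92.7 ± 4.77 and 65.0 ± 8.91 RPKM). It also holds the box C/D proteins Nop58 and Fbl, at 0.55 and 0.54.

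Initiation factors had 11 of 28 called higher and 0 lower (median 0.20), against 14.4% of all genes higher, with Eif5b and the helicase Eif4a1 each at 0.50. After the correction 5 of the 28 were called, against 6.99% of all genes higher. Elongation factors had 5 of 10 higher and 1 lower, with Eef2k, the kinase that inhibits Eef2, at −0.28 (list median 0.23), a call lost without any of the Axin1 libraries or WT replicate 1. RNA polymerase I genes had 4 of 16 higher, import factors and chaperones 5 of 14, and the p53 and 5S particle list 3 of 8, with 0 lower in each and medians of 0.15, 0.14 and 0.16, against 14.4% of all genes higher. After the correction 1 of 16, 2 of 14 and 1 of 8 were higher, and 2 of 10 elongation factors, against 6.99% of all genes. Regulators of TOP mRNA translation had 4 of 19 higher and 1 lower (median 0.01), against 14.4% and 8.37% of all genes. After the correction 1 was higher and 1 lower, against 6.99% and 7.3%. Larp1 and Mtor stood at 0.01 and −0.06 and were not called.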

How the data were processed

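TRAP RNA of 6 libraries was measured, 3 with Axin1 overexpression and 3 wild type. Levels were deposited as RPKM for every gene in each library. No header states this unit, and it was inferred from the lengths that the values imply (median ratio to the reference 0.989, 9342 genes). Group means of a normalized count signal, raw p-values and adjusted p-values from the authors' comparison were deposited beside it. Bowtie, DESeq and the build mm9 were used by the authors, per the submitters' processing notes, which give no versions. No source used here names the read counter or its rule for reads with several matches. Whole reads were recovered from RPKM and the group means (83.5% of values whole within 0.05 reads, 100.0% for genes with a single transcript), and 3 reads, the limit for a count of 0, came to 0.048 to 0.142 RPKM at 1 kb, covering counting error only.

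The test was limma 3.58.1 in R 4.3.3 on log2(RPKM + 1), group only, over the 12493 genes that averaged 1 RPKM or more, two-sided, threshold 0.05. This scale understates the change of low genes. An exact permutation test of 3 against 3 cannot go below 0.10. The limma step was tested on simulated data. Transcript windows of 50 bases (step 5) were matched with bwa 0.7.19 to GENCODE transcripts. They were taken as unique where no other gene held the exact sequence. Length and GC content, for 12362 genes (99.0%), were corrected by loess (span 0.5). Python 3.11.15, pandas 2.3.3, numpy 2.4.6 and matplotlib 3.10.9 were used. The members and gene lists were chosen with earlier results of these data known. Values per library were given by a rule: the extremes of level, fold change and adjusted p, Rpl10a, the paralogs, the low members and those beside the thresholds, with ranges for the rest. The alternatives were a replicate block, other pseudocounts, no filter, rescaling, loess, voom, other variances, other level splits and leaving out each library. The pyrimidine-run search within 20 bases of the start, the counted-length correction and the removal of short or swinging rows were added after seeing the data. Of the members, 3 are counted in all summaries but not reported here singly.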

Additional observations from a re-analysis of the deposited data

How the results depend on the processing

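The median of the 39 members at 20 RPKM or more stayed above 0 in every setting run, and none was called lower in any of them. Their 14 calls became 6 with the upper quartile, 2 with the length and GC correction and 2 with the correction by counted length. Beside them, the share of all genes called higher went from 14.4% to 8.94%, 6.99% and 7.37%. Under these 3 settings the median of the 39 members, 0.20, became 0.14, 0.07 and 0.09. With a pseudocount of 10, with voom and with the other variances the calls became 20, against 15.3%, 16.2% and 15.8% of all genes. Over the libraries left out the calls ranged from 3 to 15 and the median from 0.18 to 0.25. The share of all genes called higher ranged from 4.71% to 11.9% there. A split at 100 RPKM changes the set, and 8 of the 20 members at or above it were called, against 14.4% of all genes. For the members under 20 RPKM, the 9 calls ranged from 6 to 15 over the libraries left out, beside the same 4.71% to 11.9%. Without short or swinging rows 5 of 26 were called, and the larger set under 100 RPKM had 15 calls, against 14.4% of all genes. The median of 0.24 of the members under 20 RPKM became 0.06 with a pseudocount of 10. With the 2 corrections it was 0.08 and 0.11, and over the libraries left out it ranged from 0.18 to 0.33. The 2846 calls over all genes became 1767 and 1847 with the corrections, and ranged from 1054 to 2318 over the libraries left out. The cause of these shifts was not tested. Replicate numbers are shared only as labels: same-numbered libraries correlated at 0.0785, 0.127 and 0.0593, though each correlated best with its own number, a hint from the data and not the design. With the replicate block 13 and 11 members were called at and under 20 RPKM, against 12.7% of all genes. Without the shallowest library, Axin1 replicate 3, with 21077477 reads, 8 members under 20 RPKM were called, against 6.41% of all genes.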
